A study of Mus musculus with 12 samples.

Results

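The Hox genes were taken as every gene whose symbol in the EpiLC or PGCLC expression matrix is Hox, a cluster letter from a to d, and a paralogue number. The rule itself used names alone, but which names stood in a matrix followed the reads. The EpiLC matrix held the 21 members listed in some EpiLC library. The PGCLC matrix held the 30 listed in some PGCLC library, and Hoxc12. Apart from Hoxc12, the set is thus limited to genes with listed reads in these data. It found 32 genes among the 22440 genes named in any file, and 31 of the 32 had reads listed in at least 1 of the 12 count files, which list 21728 genes in all. Hoxc12 stood in the PGCLC matrix at 0 in its 6 libraries and in no count file. The mouse annotation (GENCODE M21) holds 39 genes of this kind. Hoxa6, Hoxc10, Hoxc11, Hoxd3, Hoxd4, Hoxd10 and Hoxd12 stood in neither matrix and in none of the 12 count files, so they were not analysed here.

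The libraries came from a mouse embryonic stem cell line on a C57BL/6 background that carries a pair of fluorescent reporters (Blimp1-mVenus and Stella-ECFP, together called BVSC). The stem cells were turned into epiblast-like cells (EpiLCs), a culture model of the post-implantation epiblast, over 48 h. EpiLCs moved to germ cell medium form aggregates, from which cells positive for both reporters were sorted as primordial germ cell-like cells (PGCLCs) at day 5. There were 4 groups of 3 libraries each: untreated EpiLCs, whose library names carry the word water, EpiLCs given 100 nM bisphenol A (BPA, a plastics chemical with oestrogen-like activity) from 24 h after seeding for 24 h, PGCLCs without BPA, and PGCLCs labelled with the same BPA dose (the BPA arm). All groups share the reporter genotype, and the labels do not state whether BPA was also in the germ cell medium. The labels do not say that replicates are separate cultures, so a p-value here reflects library-to-library spread, which may be technical.

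Hox genes encode homeodomain transcription factors that give cells their position along the head-to-tail axis. They sit in clusters in which genes at one end (low paralogue numbers) are switched on earlier and nearer the head than genes at the other end. In pluripotent cells the clusters are kept nearly silent by Polycomb proteins, and mouse primordial germ cells are known for holding down Hox genes, Hoxb1 among them, that neighbouring mesoderm cells use.

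In the mm10 assembly the Hoxa cluster lies on chromosome 6 between 52155590 and 52260880, the Hoxb cluster on chromosome 11 between 96194316 and 96368256, the Hoxc cluster on chromosome 15 between 102921103 and 103036852, and the Hoxd cluster on chromosome 2 between 74668310 and 74765142. Of the genes annotated in each cluster, the rule found 10 of 11 in Hoxa, 10 of 10 in Hoxb, 7 of 9 in Hoxc and 5 of 9 in Hoxd. RefSeq promoter entries (GRCm38.p6) were matched for 17 of the 32 members, with 19 start sites. The 250 bases before the start held a median of 13 CpG dinucleotides in Hox promoters (2 to 35), against 6 in all 32851 promoters (0 to 56). Below are the windows of Hoxa5 and Hoxb4, which were lower in PGCLCs, and of Hoxa13, which was higher there. They are printed 5′ to 3′ on the gene's strand, end at the base before the start site, hold no annotated UTR base, and carry each CpG in capitals.
Hoxa5, chr6:52204588-52204837, minus strand, 28 CpG: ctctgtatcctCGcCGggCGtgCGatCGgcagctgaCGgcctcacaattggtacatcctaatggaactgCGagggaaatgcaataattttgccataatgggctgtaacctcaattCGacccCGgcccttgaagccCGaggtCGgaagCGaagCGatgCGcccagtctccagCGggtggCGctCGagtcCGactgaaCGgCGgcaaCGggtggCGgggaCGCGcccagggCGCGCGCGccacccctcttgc
Hoxb4, chr11:96318017-96318266, plus strand, 14 CpG: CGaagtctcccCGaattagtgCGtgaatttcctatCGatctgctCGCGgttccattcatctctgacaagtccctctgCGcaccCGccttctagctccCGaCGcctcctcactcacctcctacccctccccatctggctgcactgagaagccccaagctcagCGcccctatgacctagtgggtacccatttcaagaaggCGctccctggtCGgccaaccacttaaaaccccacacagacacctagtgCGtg
Hoxa13, chr6:52260881-52261130, minus strand, 35 CpG: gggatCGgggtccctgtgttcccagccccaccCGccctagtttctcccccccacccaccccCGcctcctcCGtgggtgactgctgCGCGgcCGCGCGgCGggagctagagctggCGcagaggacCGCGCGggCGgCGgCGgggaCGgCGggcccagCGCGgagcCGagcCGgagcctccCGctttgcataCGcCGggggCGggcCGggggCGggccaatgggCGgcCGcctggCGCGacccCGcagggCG
These counts put Hoxa13 at the 97.0th percentile of all promoters for CpG content, Hoxa5 at the 92.4th and Hoxb4 at the 70.6th. Among windows not printed, that of Hoxd13, not called between stages, held 31 CpG (94.8th percentile). Hoxa11 and Hoxd9, called higher in untreated PGCLCs, held 13 each. A link between CpG content and direction was not tested.

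A short motif search covered the same windows on both strands. The letters TGATNNAT, bound by Pbx and Hox proteins together, were found in 4 of the 19 Hox windows (Hoxa2, Hoxb1, Hoxb8 and Hoxd11) and in 7.68% of all promoters. The Cdx-type letters TTTATTG were found in 1 Hox window (Hoxb8) and in 4.2% of all promoters, TTTATGG in 0 and 2.43%, and the retinoic acid receptor repeat known as DR5 in 0 and 0.00913%. A match is a description of the letters and not a measured site. The Hoxb1 match is shown because this gene is known to be driven by its own protein with Pbx, and because it had the highest level per length in untreated EpiLCs; the Hoxb8 window holds both letter sets. Capitals mark the match.
Hoxb1, chr11:96365566-96365633, plus strand, TGATNNAT: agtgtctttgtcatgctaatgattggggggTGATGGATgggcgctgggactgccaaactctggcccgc
Hoxb8, chr11:96281755-96281821, plus strand, TTTATTG: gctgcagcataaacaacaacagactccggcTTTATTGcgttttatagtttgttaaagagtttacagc
Hoxb8, chr11:96281864-96281904, plus strand, TGATNNAT on the opposite strand: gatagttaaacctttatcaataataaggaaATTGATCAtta

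The libraries held 11785338 to 34309195 counts in genes and listed 14323 to 17468 genes. A gene is listed in a count file only from 10 counts, so an unlisted gene had 9 counts or fewer, or at most 0.254 to 0.740 CPM depending on the library. CPM are a gene's counts relative to the library's total, here scaled by 1 set of TMM factors (a correction for library make-up) over the 12 libraries. Some libraries stood apart from their group: the mean chi-square per gene of a library pair (1 for sampling noise alone) was 106 and 140 for untreated EpiLC replicate 3 against replicates 1 and 2, which differed from each other by 8.05. The description of this library carries another replicate number than its title, which was followed here. In BPA-arm PGCLCs it was 52.5 and 50.4 for replicate 3 against replicates 1 and 2, which differed by only 4.17. The 3 pairs of untreated PGCLCs gave 19.3 to 22.9. The germ cell markers rose in PGCLCs (6 of 6, in both arms), although Prdm1 (Blimp1) and Dppa3 (Stella) were the sort genes. Prdm14 was unlisted throughout EpiLCs and could be called only higher. EpiLC and PGCLC libraries follow different naming schemes, as do untreated and BPA-arm PGCLCs, so preparation batch and group cannot be told apart there. The counting output differed too. All BPA-arm PGCLC libraries and BPA-treated EpiLC replicate 2 carry a row for reads without a unique alignment, which the other libraries lack.

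Hox transcripts were rare in every library. Together they made up 0.00766 to 0.00846% of counts in EpiLCs and 0.00191 to 0.00296% in PGCLCs. EpiLC libraries listed 19 or 20 Hox genes, PGCLC libraries 15 to 21. The EpiLC libraries were the shallower ones, with 11785338 to 22029195 counts in genes against 30375633 to 34309195. An unlisted gene could thus reach 0.403 to 0.740 CPM in EpiLCs but only 0.254 to 0.299 CPM in PGCLCs. Listing is therefore not compared at equal depth between the stages. Only 7 members, among them Hoxa3, Hoxa10, Hoxb2, Hoxb3, Hoxb4 and Hoxb9, were listed in all 12 libraries. In EpiLCs 18 were listed in all 6 libraries, and 10 were unlisted in all 6 (Hoxa11, Hoxa13, Hoxc4, Hoxc5, Hoxc6, Hoxc8, Hoxc9, Hoxd8, Hoxd9 and Hoxd11). In PGCLCs 10 were listed in all 6 libraries, and 1 listed elsewhere, Hoxd1, was unlisted in all 6. Low Hox RNA in a bulk library can mean fewer cells with transcripts or less RNA per cell, and these cannot be told apart.

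**Figure D1:**
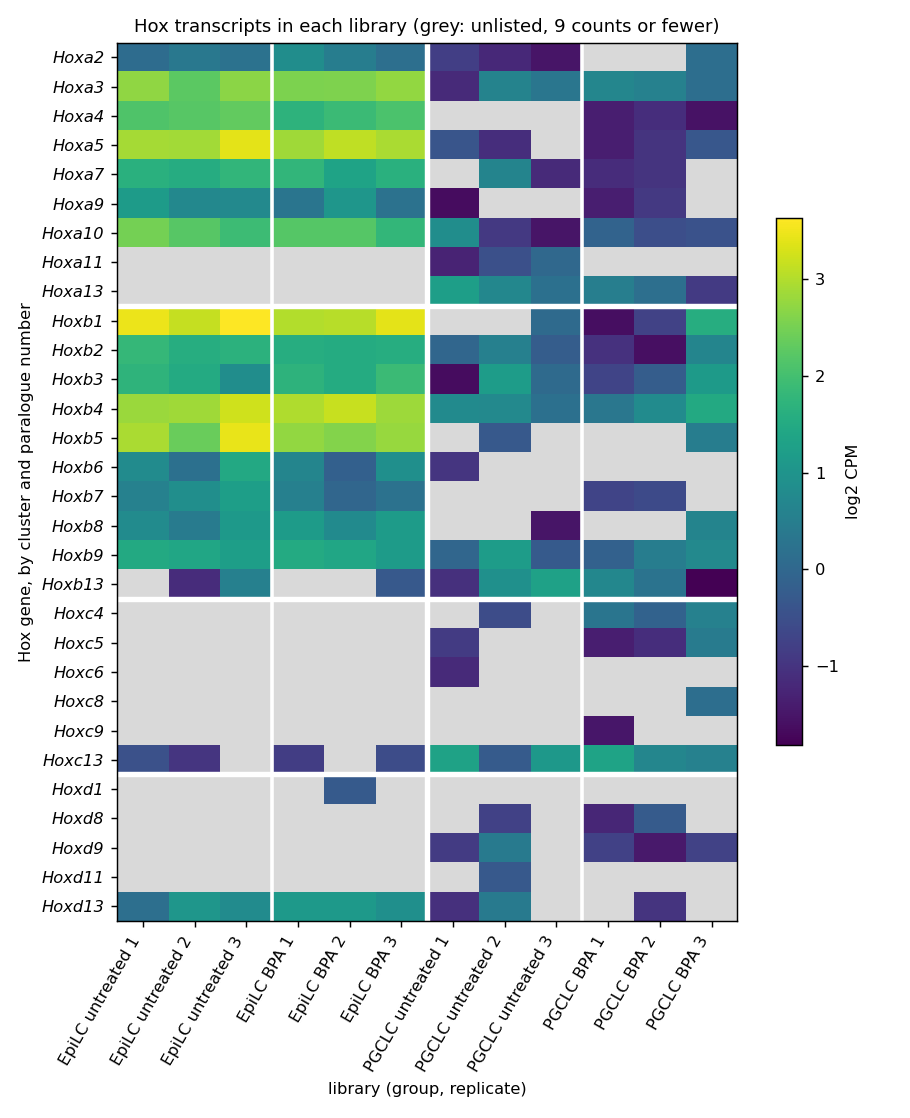
Heat map of log2 CPM for 30 Hox genes (rows, by cluster and paralogue number) in each of the 12 libraries (columns, by group and replicate), with unlisted values in grey. The Hoxa and Hoxb rows shown are listed in all 6 EpiLC libraries up to Hoxa10 and Hoxb9, the Hoxc and Hoxd rows are mostly grey in EpiLCs, and grey cells are scattered through the PGCLC columns.

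Between genes, levels were compared per kb of exon. Among the highest in untreated EpiLCs were Hoxb1 at 4.64 ± 0.765 CPM per kb (SD, n = 3), Hoxa5 at 4.50 ± 0.986, Hoxb4 at 3.09 ± 0.523, Hoxa4 at 2.92 ± 0.210 and Hoxb5 at 2.86 ± 1.04. Hoxb1 and Hoxa5 lay within the larger of their SDs, as did Hoxb4, Hoxa4 and Hoxb5. The steps from Hoxa5 to Hoxb4 and from Hoxb5 to Hoxa10, at 1.43 ± 0.289 CPM per kb, were larger than either SD. BPA-treated EpiLCs were led by Hoxa5 at 4.17 ± 0.395 and Hoxb1 at 3.85 ± 0.602 CPM per kb. Among the highest in untreated PGCLCs were 3 genes of paralogue group 13, Hoxc13 at 0.740 ± 0.352, Hoxb13 at 0.730 ± 0.462 and Hoxa13 at 0.691 ± 0.247 CPM per kb, whose order lies within their spread. In BPA-arm PGCLCs they included Hoxc13 (0.763 ± 0.233) and Hoxb4 (0.757 ± 0.305 CPM per kb).

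The question of the stage comparison was which Hox genes differ between EpiLCs and the sorted germ cell-like cells made from them. In untreated cells, 11 of the 26 Hox genes tested were lower in PGCLCs and 3 were higher (edgeR quasi-likelihood test, adjusted p under 0.05 over all genes). Over all 17608 genes tested, 25.2% were called lower and 30.4% higher, 55.6% in all. In the BPA arm the counts were again 11 lower and 3 higher of 26, against 25% lower and 32.5% higher over all genes, 57.5% in all. The 2 comparisons share no library, but both were read from 1 fit of all 12 libraries. They share its filter, scaling and estimate of the spread, so the equal counts are not independent. Fits of each arm's 6 libraries alone called 12 members untreated and 17 in the BPA arm, of 22 tested. The median log2 change of the tested members was -1.49 and -1.90 in the 2 arms, and that of all genes 0.07 and 0.13. Setting the 8 and 6 members unlisted throughout 1 of the groups compared to their bound left the members' medians the same. Members unlisted in only part of a group kept their fitted values, with 0 counts there. How far the medians depend on the listing minimum was thus not tested. The genes lower in both arms were 9, among them Hoxa3, Hoxa4, Hoxa5, Hoxa10, Hoxb1, Hoxb2, Hoxb4 and Hoxb5. Higher in both were 2, Hoxa13 and Hoxd9. Among the members tested, those unlisted throughout EpiLCs could enter only through PGCLC reads, so they could be called only in the higher direction. Likewise Hoxa4 and Hoxb7, unlisted throughout untreated PGCLCs, could be called only lower in the untreated arm. The same holds in the BPA arm for Hoxb6, unlisted throughout BPA-arm PGCLCs. Without untreated EpiLC replicate 3, which stood apart, 11 members were called in the untreated arm, and without BPA-arm PGCLC replicate 3, 14 in the BPA arm, 13 of them lower. The BPA-arm count dropped to 9 without BPA-arm PGCLC replicate 1. With unlisted genes at 9 counts 16 members were called untreated and 17 in the BPA arm. With 9 counts Hoxc13 joined as higher in both arms, Hoxa7, Hoxb6 and Hoxb8 as lower untreated, and Hoxa9, Hoxb7 and Hoxd13 as lower in the BPA arm. The calls of 7 members held in both arms under every alternative, among them Hoxa3, Hoxa4, Hoxa5, Hoxa10 and Hoxb4 as lower and Hoxa13 as higher.

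Of the anterior genes (paralogues 1 to 3), 4 of 6 tested were lower in each arm and 0 higher. Over all genes, 25.2% were lower untreated and 25% in the BPA arm. Hoxb1, which specifies a single hindbrain segment, fell in both arms. It stood at 11.0, 8.87 and 12.4 CPM in untreated EpiLCs and 8.03, 8.23 and 10.5 CPM with BPA. In untreated PGCLCs it was unlisted, unlisted and 1.05 CPM, and in the BPA arm 0.325, 0.599 and 2.97 CPM. The groups did not overlap, and BPA-arm replicate 3 was the highest PGCLC library. The log2 change was -4.93 ± 1.05 untreated (edgeR adjusted p = 0.00179) and -2.76 ± 0.91 in the BPA arm (edgeR adjusted p = 0.0212). Untreated PGCLC replicate 3 was the 1 library of its group to list the gene, and without it the untreated value was -11.05. Without BPA-arm replicate 3 the BPA-arm value was -4.26. With unlisted libraries set to 9 counts the changes were -4.07 and -2.49. The BPA-arm call was lost without BPA-treated EpiLC replicate 3 and without BPA-arm PGCLC replicate 1 or 2 (edgeR adjusted p = 0.061, 0.0699 and 0.0731).

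Hoxa3 and Hoxb3, involved in pharyngeal organs and cranial nerves, differed in how tightly they were measured. Hoxa3 stood at 6.59, 4.80 and 6.41 CPM in untreated EpiLCs, 5.89, 6.01 and 6.67 CPM with BPA, 0.446, 1.52 and 1.24 CPM in untreated PGCLCs and 1.59, 1.50 and 1.10 CPM in the BPA arm. Its means were 5.54-fold lower in untreated and 4.43-fold lower in BPA-arm PGCLCs, with log2 changes of -2.46 ± 0.37 (edgeR adjusted p = 0.000156) and -2.15 ± 0.37 (edgeR adjusted p = 0.000348). Hoxb3 stood at 3.32, 2.84 and 1.81 CPM in untreated EpiLCs and 3.26, 2.88 and 3.69 CPM with BPA. Its PGCLC values spread widely, at 0.319, 2.30 and 1.05 CPM untreated and 0.617, 0.865 and 2.23 CPM in the BPA arm. Hoxb3 was not called in either arm (log2 change -1.12 ± 0.64, edgeR adjusted p = 0.153, and -1.40 ± 0.64, edgeR adjusted p = 0.0791). In the BPA arm Hoxb3 was called lower in the fit of its 6 libraries and without BPA-arm PGCLC replicate 3. Untreated, Hoxb3 was called lower without untreated PGCLC replicate 2. Of its exon bases, 52.9% are shared with Hoxb3os on the opposite strand, and 25.4% of those of Hoxa3 are shared with antisense genes. The library kit keeps strand, but how the counting treated strand is not stated, so antisense reads could be part of both values. The same holds for Hoxb2 and Hoxa7, with 27.3 and 20.4% of exon bases shared on the opposite strand.

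Hoxb2 and Hoxa2, regulators of hindbrain and pharyngeal arch identity, were both low. Hoxb2 stood at 3.50, 2.97 and 3.20 CPM in untreated EpiLCs, 2.98, 2.88 and 2.97 CPM with BPA, 0.988, 1.46 and 0.860 CPM in untreated PGCLCs and 0.487, 0.333 and 1.58 CPM in the BPA arm. It was lower in both arms, by -1.54 ± 0.51 (edgeR adjusted p = 0.0226) and -1.86 ± 0.52 (edgeR adjusted p = 0.0089) on the log2 scale. Without BPA-arm replicate 3, the highest of its group, the BPA-arm value was -2.83. The untreated call was lost without untreated EpiLC replicate 1 (adjusted p = 0.0636 by edgeR) and without untreated PGCLC replicate 1 or 3 (0.0543 and 0.0634). Hoxa2 stood at 1.08, 1.28 and 1.18 CPM in untreated EpiLCs and 1.80, 1.40 and 1.13 CPM with BPA. In PGCLCs Hoxa2 was 0.574, 0.435 and 0.350 CPM untreated, and unlisted, unlisted and 1.10 CPM in the BPA arm. It did not pass the test in either arm (edgeR adjusted p = 0.408 and 0.239). Without BPA-arm PGCLC replicate 3, the 1 library of its group to list it, Hoxa2 was called lower in the BPA arm. All PGCLC libraries were below the EpiLC libraries of their arm, but the share of all genes separating so was not computed.

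Of the central genes (paralogues 4 to 8), which pattern the neck and trunk, 11 were tested: 5 were lower untreated, and 6 were lower and 1 higher in the BPA arm. Over all genes, 25.2% were lower and 30.4% higher untreated, and 25% and 32.5% in the BPA arm. Hoxa5, a regulator of lung and cervical skeleton, stood at 7.40, 7.36 and 10.6 CPM in untreated EpiLCs, 7.19, 8.64 and 7.66 CPM with BPA, 0.765 and 0.467 CPM and unlisted in untreated PGCLCs, and 0.390, 0.499 and 0.792 CPM in the BPA arm. It changed by -4.34 ± 0.65 (edgeR adjusted p = 0.000152) and -3.78 ± 0.63 (edgeR adjusted p = 0.000296) in log2 units, or by -3.81 and -3.50 with unlisted libraries set to 9 counts. No exon base of Hoxa5 is shared with another annotated gene.

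Hoxa4 and Hoxb4, which act in cervical vertebrae and blood progenitors, both fell. Hoxa4, which shares 16.0% of its exon bases with an antisense gene whose reads could likewise be part of its values, was 4.35, 4.62 and 5.01 CPM in untreated EpiLCs and 3.26, 3.70 and 4.24 CPM with BPA. All 3 untreated PGCLC libraries left it unlisted, at least 16.4-fold lower (edgeR adjusted p = 5.27e-07), while the BPA arm listed it at 0.390, 0.466 and 0.339 CPM, a log2 change of -3.22 ± 0.35 (edgeR adjusted p = 2.96e-05). Hoxb4 was the central gene best covered in PGCLCs. It stood at 7.04, 7.27 and 9.47 CPM in untreated EpiLCs, 7.92, 9.05 and 7.12 CPM with BPA, 1.72, 1.68 and 1.15 CPM in untreated PGCLCs and 1.27, 1.76 and 2.80 CPM in the BPA arm. Its log2 change was -2.38 ± 0.30 (edgeR adjusted p = 3.71e-05) untreated and -2.04 ± 0.29 (edgeR adjusted p = 9.51e-05) in the BPA arm.

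Hoxb5, which acts in neural crest and the shoulder girdle, stood at 7.62, 5.26 and 11.0 CPM in untreated EpiLCs and 6.68, 6.17 and 6.94 CPM with BPA. Only untreated PGCLC replicate 2 (0.809 CPM) and BPA-arm replicate 3 (1.41 CPM) listed it among the 6 PGCLC libraries. It was lower in both arms (-4.84 ± 1.32, edgeR adjusted p = 0.00837, and -3.74 ± 1.23, edgeR adjusted p = 0.0212), or by -3.85 and -3.00 with unlisted libraries at 9 counts. Without the 1 PGCLC library that listed it in each arm the values were -10.60 and -10.32, so the fitted size rests on that library. The BPA-arm call was lost by DESeq2 (adjusted p = 0.124), without BPA-treated EpiLC replicate 3 and without BPA-arm PGCLC replicate 1 or 2.

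Hoxa7, Hoxb6, Hoxb7 and Hoxb8, trunk genes of the thoracic region, were low in EpiLCs and rarely listed in PGCLCs. Hoxa7 stood at 3.14, 2.93 and 3.41 CPM in untreated EpiLCs, 3.42, 2.55 and 3.11 CPM with BPA, unlisted, 1.56 and 0.446 CPM in untreated PGCLCs and 0.455, 0.499 CPM and unlisted in the BPA arm. It was lower in the BPA arm alone (-3.25 ± 1.18, edgeR adjusted p = 0.0332, against -2.23 ± 1.11, edgeR adjusted p = 0.107, untreated), and that call was lost when any 1 of the 6 libraries compared was left out. Hoxb7 stood at 1.48, 1.83 and 2.37 CPM in untreated EpiLCs and 1.46, 0.987 and 1.17 CPM with BPA. All untreated PGCLC libraries left Hoxb7 unlisted, at least 6.65-fold lower (edgeR adjusted p = 0.00200), and the BPA arm gave 0.617 and 0.665 CPM and unlisted, not called (edgeR adjusted p = 0.292) except with unlisted libraries at 9 counts. Hoxb6 stood at 1.75, 1.14 and 2.79 CPM in untreated EpiLCs and 1.57, 0.905 and 1.85 CPM with BPA. It was listed in 1 PGCLC library, untreated replicate 1, at 0.510 CPM. In the BPA arm it was at least 5.11-fold lower (edgeR adjusted p = 0.00609), and untreated it missed the threshold (edgeR adjusted p = 0.0727). Its untreated change was called lower by DESeq2, with a filter of 1 CPM in 3 libraries and with unlisted libraries at 9 counts. It was also called without untreated PGCLC replicate 1, the library that listed it. Hoxb8 stood at 1.75, 1.37 and 2.16 CPM in untreated EpiLCs and 2.25, 1.73 and 2.25 CPM with BPA. Only untreated PGCLC replicate 3 (0.350 CPM) and BPA-arm replicate 3 (1.56 CPM) listed it in PGCLCs, and it was called in neither arm (edgeR adjusted p = 0.0822 and 0.305). Hoxb8 was called lower in each arm without the PGCLC library that listed it. Untreated, it was also called with a replicate block and with unlisted libraries at 9 counts. A call in 1 arm and not in the other was tested only through the difference of the BPA effects, given further on.

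Posterior genes (paralogues 9 to 13) pattern the lumbar and tail regions, limbs and urogenital tract. Of 9 tested, 3 were higher and 2 lower untreated, and 2 higher and 1 lower in the BPA arm. Over all genes, 30.4% were higher and 25.2% lower untreated, and 32.5% and 25% in the BPA arm. With so few genes, nothing is read from counts near these shares. The genes called higher, Hoxa11, Hoxa13 and Hoxd9, were unlisted throughout EpiLCs and could be called only higher. Hoxa10, a uterine and lumbar patterning gene, fell. Hoxa10 was 5.65, 4.66 and 3.76 CPM in untreated EpiLCs, 4.60, 4.61 and 3.47 CPM with BPA, 1.82, 0.529 and 0.350 CPM in untreated PGCLCs and 0.942, 0.698 and 0.735 CPM in the BPA arm. Its log2 changes were -2.38 ± 0.51 (edgeR adjusted p = 0.00182) and -2.41 ± 0.51 (edgeR adjusted p = 0.00168). Hoxa9, known from blood progenitors and leukaemia, stood at 2.24, 1.65 and 1.67 CPM in untreated EpiLCs and 1.24, 2.06 and 1.17 CPM with BPA. In PGCLCs it was listed in untreated replicate 1 at 0.319 CPM and in BPA-arm replicates 1 and 2 at 0.390 and 0.532 CPM. It was lower in the untreated arm (-4.07 ± 1.53, edgeR adjusted p = 0.0397, or -2.40 with unlisted libraries at 9 counts and -8.51 without untreated PGCLC replicate 1), not in the BPA arm (edgeR adjusted p = 0.184), and the untreated call was lost in 6 of 13 alternatives, 5 of them a left-out library. Hoxb9, a rib cage gene listed everywhere, stood at 2.82, 2.65 and 2.37 CPM in untreated EpiLCs, 2.86, 2.63 and 2.25 CPM with BPA, 0.988, 2.30 and 0.828 CPM in untreated PGCLCs and 0.910, 1.40 and 1.67 CPM in the BPA arm. It was not called (edgeR adjusted p = 0.0849 and 0.0753). Hoxb9 was called lower by DESeq2 in both arms, in the fit of the BPA arm's 6 libraries, and untreated without untreated PGCLC replicate 2. Each PGCLC library was below all EpiLC libraries of its arm, but the share of all genes separating so was not computed.

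Hoxa13, which acts in digits, hindgut and allantois, was unlisted in all 6 EpiLC libraries. It was 2.36, 1.62 and 1.15 CPM (74, 52 and 36 counts) in untreated PGCLCs and 1.43, 1.13 and 0.537 CPM (44, 34 and 19 counts) in the BPA arm. This is at least 3.55-fold and at least 1.88-fold higher than the EpiLC bound, with adjusted p = 0.00102 and 0.00164 by edgeR. The call held in all 13 alternatives of each arm. No exon base of Hoxa13 is shared with another annotated gene.

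Hoxa11 and Hoxd9, limb and urogenital genes, were also unlisted in every EpiLC library. Hoxa11 was 0.414, 0.715 and 1.02 CPM (13, 23 and 32 counts) in untreated PGCLCs, at least 1.49-fold higher (edgeR adjusted p = 0.0267), and unlisted in the BPA arm. Hoxd9 was 0.542 and 1.34 CPM and unlisted in untreated PGCLCs and 0.585, 0.366 and 0.594 CPM in the BPA arm. It was called higher in both arms (edgeR adjusted p = 0.0351 and 0.0419), at least 1.30-fold untreated, but its untreated groups overlapped, and in the BPA arm the bound gives no fold. With unlisted libraries at 9 counts neither gene was called untreated (edgeR adjusted p = 0.05 for Hoxa11 and 0.16 for Hoxd9), and Hoxd9 was not called in the BPA arm (0.684). The untreated calls of both genes were lost when any 1 untreated EpiLC library was left out, and the BPA-arm call of Hoxd9 when any 1 of its 6 libraries was. Of the exon bases of Hoxa11, 35% are shared with Hoxa11os on the opposite strand.

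The other genes of paralogue group 13 did not pass the test. Hoxb13 and Hoxc13 were listed in all 6 PGCLC libraries and Hoxd13 in 3. Hoxc13, known from hair follicles, stood at 0.717 and 0.503 CPM and unlisted in untreated EpiLCs, 0.561 CPM, unlisted and 0.676 CPM with BPA, 2.49, 0.840 and 2.13 CPM in untreated PGCLCs and 2.53, 1.60 and 1.50 CPM in the BPA arm. All PGCLC libraries were above all EpiLC libraries, but the share of all genes separating so was not computed. The log2 changes of 2.10 ± 1.05 and 2.12 ± 1.06 missed the threshold (edgeR adjusted p = 0.108 and 0.105). Hoxc13 was called higher in both arms with unlisted libraries at 9 counts, and in the BPA arm in the fit of its 6 libraries. Hoxb13, a prostate and tail gene, gave unlisted, 0.457 and 1.46 CPM in untreated EpiLCs, 0.811 CPM in 1 of 3 BPA libraries (replicate 3), 0.478, 1.90 and 2.45 CPM in untreated PGCLCs and 1.62, 1.20 and 0.283 CPM in the BPA arm (edgeR adjusted p = 0.467 and 0.327). Without BPA-treated EpiLC replicate 3, Hoxb13 was called higher in the BPA arm. Hoxd13, a digit gene, lay on the other side, at 1.12, 2.06 and 1.74 CPM in untreated EpiLCs, 2.19, 2.14 and 1.85 CPM with BPA, 0.478 and 1.34 CPM and unlisted in untreated PGCLCs and 0.499 CPM in 1 BPA-arm library, replicate 2 (edgeR adjusted p = 0.409 and 0.0634). Its BPA-arm change was called lower with unlisted libraries at 9 counts, by DESeq2, with a replicate block, with a filter of 1 CPM in 3 libraries and in the fit of 6 libraries.

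Among the Hoxc genes, Hoxc4, a neck-level gene, was called in the BPA arm alone. It was unlisted in all EpiLC libraries, listed once in untreated PGCLCs at 0.684 CPM, and at 1.23, 0.931 and 1.50 CPM in the BPA arm, at least 2.22-fold above BPA-treated EpiLCs (edgeR adjusted p = 0.0363). Leaving out any 1 of the 6 libraries ended that call. Hoxc5 was listed in untreated PGCLC replicate 1 and in all 3 BPA-arm libraries, at 0.542, 0.390, 0.466 and 1.36 CPM, and was not called (edgeR adjusted p = 0.121 and 0.0554). The remaining members were listed in 1 to 3 libraries: Hoxc6, Hoxc8, Hoxc9, Hoxd1 and Hoxd11 in 1 each and Hoxd8 in 3, at 0.357 to 1.10 CPM. Hoxc8 (1.10 CPM) was listed in BPA-arm PGCLC replicate 3 and Hoxd1 in BPA-treated EpiLC replicate 2.

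**Figure D2:**
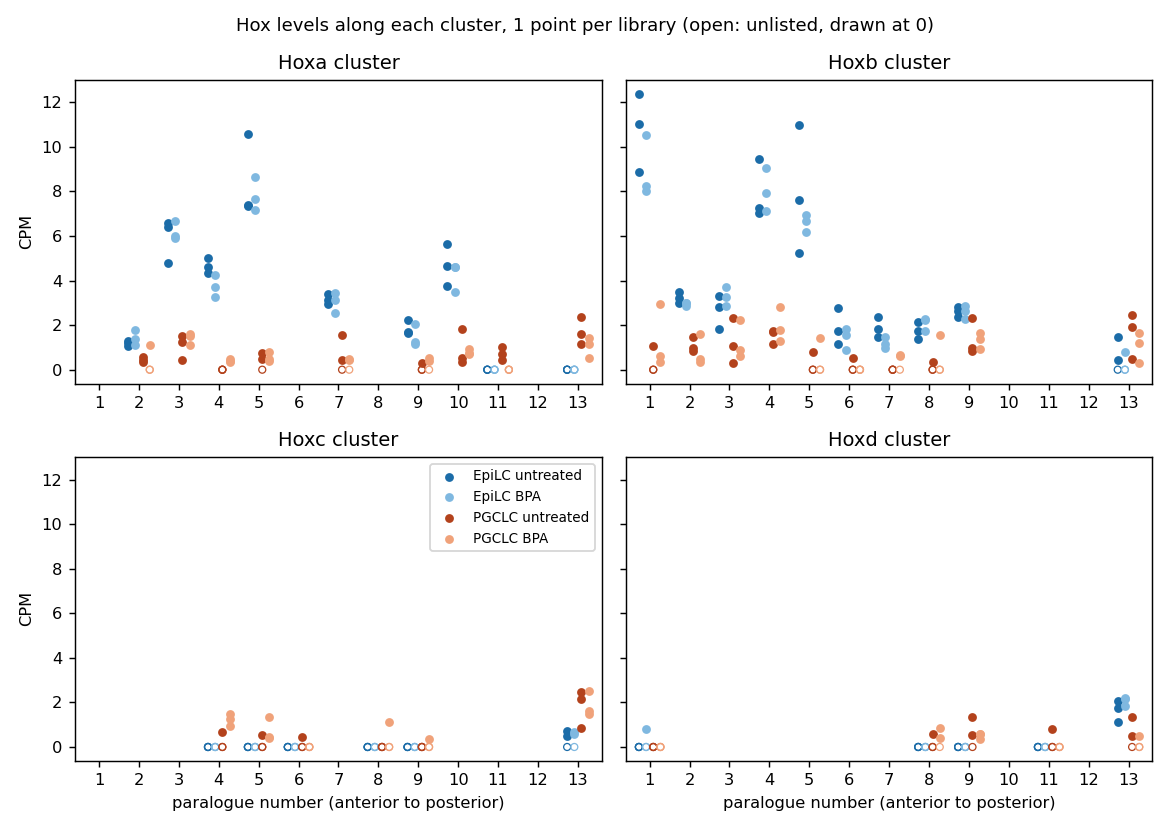
CPM (linear axis) against paralogue number for 30 Hox genes by cluster, 1 point per library coloured by group, with unlisted values as open points at 0. EpiLC points reach 10.6 CPM in Hoxa and 12.4 CPM in Hoxb and no PGCLC point shown lies above 2.97 CPM, while at paralogue 13 of Hoxa and Hoxc the PGCLC points are the higher ones.

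**Figure D3:**
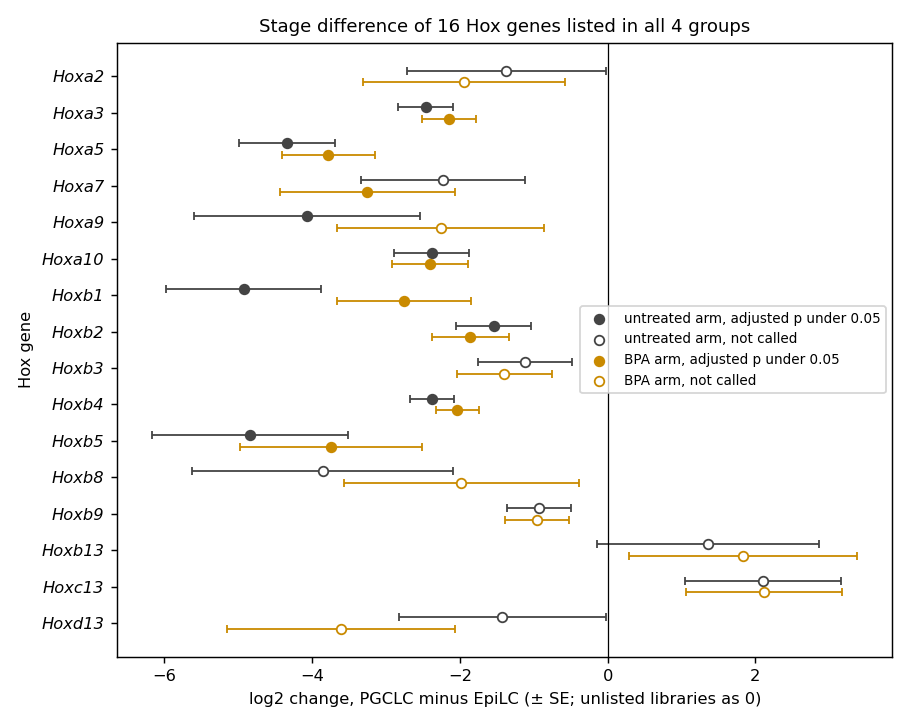
Log2 change between stages (PGCLC minus EpiLC, horizontal axis) with SE for 16 Hox genes tested in both arms that had a listed library in all 4 groups, in the untreated arm (grey) and the BPA arm (ochre), filled where adjusted p is under 0.05. Filled points lie left of 0 in both arms for Hoxa3, Hoxa5, Hoxa10, Hoxb1, Hoxb2, Hoxb4 and Hoxb5, while Hoxb13 and Hoxc13 lie right of 0 without a call.

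Summed over members, Hox RNA was 82.2 ± 7.77 CPM in untreated EpiLCs (SD, n = 3), 76.6 ± 1.33 CPM with BPA, 22.6 ± 3.79 CPM in untreated PGCLCs and 24.3 ± 3.92 CPM in the BPA arm. The sums are descriptions, with no test. The 7 anterior genes summed to 32.7 ± 1.24, 31.6 ± 1.67, 8.93 ± 0.97 and 9.70 ± 2.50 CPM in the same order of groups. The 13 central genes summed to 37.7 ± 7.99, 33.9 ± 0.34, 3.90 ± 1.92 and 7.38 ± 3.05 CPM. The EpiLC and PGCLC libraries of these classes did not overlap. For the 11 posterior genes, the sums of 11.8 ± 0.78, 11.0 ± 0.70, 9.73 ± 1.73 and 7.17 ± 1.74 CPM overlapped between untreated EpiLCs (11.0 to 12.6 CPM) and untreated PGCLCs (7.93 to 11.4 CPM) but not in the BPA arm (10.2 to 11.5 and 5.32 to 8.77 CPM). The untreated EpiLC mean was 3.66 times the PGCLC mean for anterior genes, 9.67 times for central genes and 1.22 times for posterior genes. These ratios were 3.26, 4.60 and 1.54 in the BPA arm. With unlisted values at their bound of 9 counts they were 3.52, 6.39 and 1.38 untreated and 3.14, 4.17 and 1.77 in the BPA arm.

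The make-up of Hox RNA differed between stages. Posterior genes took 12.2 to 15.9% of Hox counts in the 6 EpiLC libraries. They took 45.6, 42.6 and 41.1% in untreated PGCLCs and 39.2, 34.3 and 18.5% in the BPA arm. Paralogue group 13 alone took 2.27 to 4.27% in EpiLCs, 21.3 to 29.7% in untreated PGCLCs and 25.0, 20.4 and 8.06% in the BPA arm. By cluster, the means of untreated EpiLCs and untreated PGCLCs were 38.8 and 10.8 CPM for Hoxa, 41.3 and 7.73 CPM for Hoxb, 0.41 and 2.38 CPM for Hoxc, and 1.64 and 1.70 CPM for Hoxd. The Hoxd value of PGCLCs rests on replicate 2 (1.02, 4.07 and 0 CPM), and in the BPA arm the Hoxd means were 2.33 in EpiLCs and 1.10 CPM in PGCLCs. With unlisted values at their bound the untreated means were 3.02 and 3.52 CPM for Hoxc, and 3.56 and 2.56 CPM for Hoxd, where the direction turned.

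**Figure D4:**
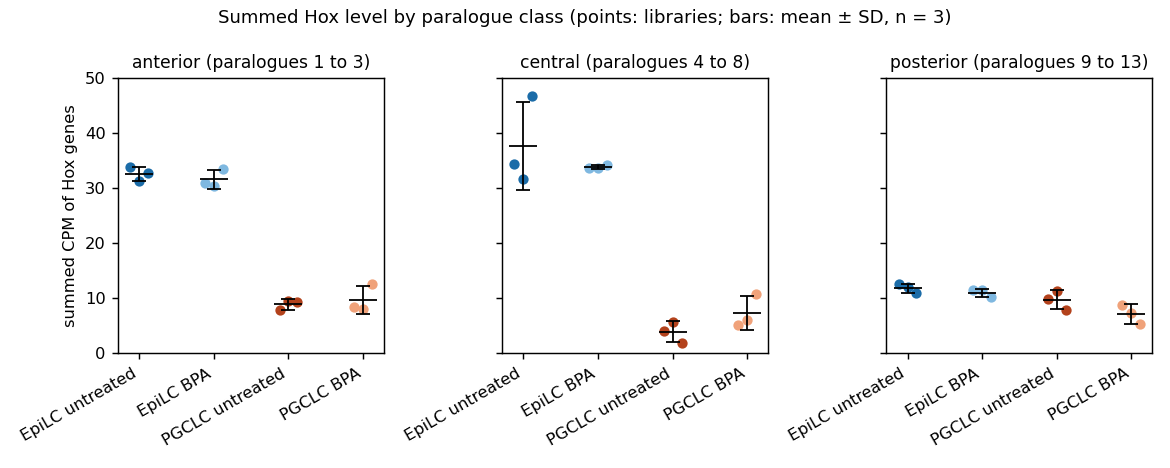
Summed CPM (linear axis from 0) of anterior, central and posterior Hox genes in each library, by group, with mean and SD (n = 3). EpiLC libraries stand at 30.4 to 46.8 CPM for anterior and central genes and PGCLC libraries at 1.94 to 12.6 CPM, while for posterior genes all libraries lie between 5.32 and 12.6 CPM.

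Markers of other cell types moved with stage as well. The summed CPM of 7 lateral and extraembryonic mesoderm markers was 3.04 to 4.60 in EpiLCs and 105 to 157 in PGCLCs, and all 7 rose in both arms. The 7 endoderm markers, all higher in both arms, summed to 2.47 to 4.19 CPM in EpiLCs, 119 to 160 CPM in untreated PGCLCs and 4356, 4271 and 2134 CPM in the BPA arm. The 4 trophoblast markers were also higher in both arms (3.75 to 5.85 CPM in EpiLCs, 48.2 to 78.6 CPM in PGCLCs). Among the endoderm markers, 5 were unlisted throughout untreated EpiLCs and 4 throughout BPA-treated EpiLCs. Hand2, Foxf1 and Pitx1 of the lateral mesoderm list and Elf5 of the trophoblast list were unlisted throughout both. Such genes could be called only higher, so these counts were partly fixed in advance. The 5 listed neuroectoderm markers summed to 113 to 145 CPM in EpiLCs and 43.0 to 49.2 CPM in PGCLCs, with 3 lower in each arm. The 7 listed primitive streak and posterior mesoderm markers summed to 12.9 to 20.8 CPM in EpiLCs and 30.2 to 34.4 CPM in untreated PGCLCs. In the BPA arm they summed to 86.6, 86.4 and 33.7 CPM. Of these markers, 1 was called higher (Eomes) and 1 lower (Nkx1-2) in each arm. T, the defining streak gene, was unlisted in 4 of 6 PGCLC libraries and at 0.435 and 0.452 CPM in the others. Nkx1-2 was unlisted in all 6, so it could be called only lower. The epiblast markers (6 listed) summed to 1258 to 1380 CPM in EpiLCs and 944 to 1233 CPM in PGCLCs, with 2 higher and 3 lower in each arm. The part of any of these cell types in the Hox values was not tested.

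The next question was whether 100 nM BPA changed Hox genes in EpiLCs. None of the 19 Hox genes tested was called, and the share called over all 15252 genes was 0%. At an unadjusted p under 0.05 there were 118 genes, 0 of them Hox, and DESeq2 called 16 genes, again 0 Hox. The 118 are fewer than this threshold gives over 15252 genes with no effect, so the edgeR test was conservative here. The lack of calls therefore does not show that BPA left Hox genes unchanged in EpiLCs. The lowest p among members was that of Hoxb7, with a log2 change of -0.61 ± 0.31 (edgeR adjusted p = 0.943). The next was Hoxa4 at -0.30 ± 0.15 (edgeR adjusted p = 0.943). In both genes all 3 BPA libraries lay below all 3 untreated libraries. The share of all genes with such a separation was not computed, so nothing is read from it. Hoxb1 gave -0.24 ± 0.17, Hoxb4 0.04 ± 0.16 and Hoxa3 0.08 ± 0.16. The tested members ranged from -0.61 to 0.34, with a median of -0.04 against 0.00 for all genes.

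In PGCLCs the BPA arm had 1 Hox gene called of 22 tested, Hoxa11, which was lower. Over all 16753 genes tested, 13.9% were called, 5.72% lower and 8.13% higher. Hoxa11 stood at 0.414, 0.715 and 1.02 CPM in untreated PGCLCs and was unlisted in the 3 BPA-arm libraries, at least 2.54-fold lower (edgeR adjusted p = 0.0446). That call was lost in 10 of 12 alternatives, among them each of the 6 left-out libraries (edgeR adjusted p = 0.0535 to 0.157) and unlisted libraries at 9 counts (adjusted p = 0.0694). Hoxa4 went the other way, unlisted in untreated PGCLCs and 0.390, 0.466 and 0.339 CPM (12, 14 and 12 counts) in the BPA arm. That is at least 1.40-fold higher, but the test missed the threshold (edgeR adjusted p = 0.0697). Hoxa13 stood at 1.71 ± 0.611 CPM untreated and 1.03 ± 0.454 CPM in the BPA arm, a log2 change of -0.71 ± 0.59 (edgeR adjusted p = 0.512), with overlapping groups.

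Hox genes varied more between PGCLC libraries than between EpiLC libraries. For the 7 genes listed in all 12 libraries, the coefficient of variation had a median of 16.9% in untreated and 11.9% in BPA-treated EpiLCs, 52.2% in untreated PGCLCs and 29.0% in the BPA arm. The extremes came from Hoxa10 in untreated PGCLCs (89.0%) and Hoxb2 in the BPA arm (85.1%). Hoxa10 held 57, 17 and 11 counts in untreated PGCLCs, against 126, 102 and 54 in untreated EpiLCs. Hoxb2 held 15, 10 and 56 counts in BPA-arm PGCLCs, against 53, 35 and 66 in BPA-treated EpiLCs. Lower counts alone give a larger coefficient, and the part of counting noise was not tested. The log2 change with BPA was 0.37 ± 0.46 for Hoxb4, 0.39 ± 0.64 for Hoxa3, -0.04 ± 0.60 for Hoxb9 and 0.03 ± 0.84 for Hoxb3, none of them called.

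**Figure D5:**
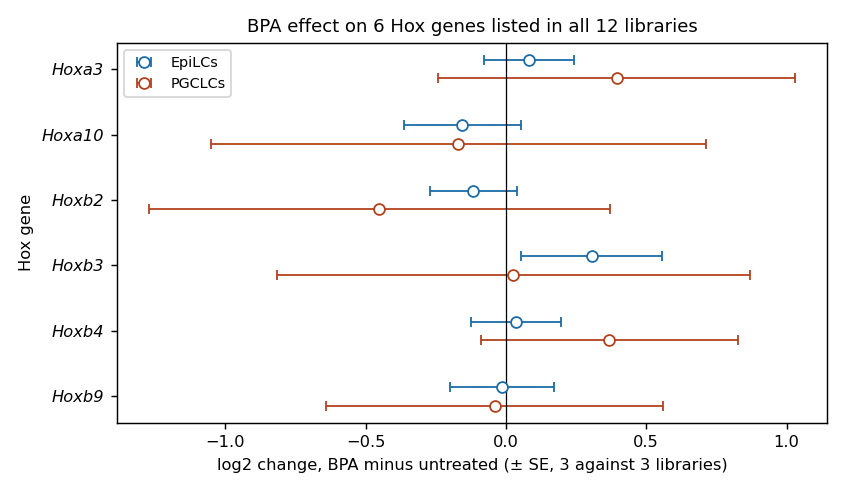
Log2 change with BPA (BPA minus untreated, horizontal axis) with SE for 6 Hox genes listed in all 12 libraries, in EpiLCs (blue) and PGCLCs (red), 3 against 3 libraries each. No point passed the test, and the PGCLC error bars (SE 0.46 to 0.88) are wider than the EpiLC ones (0.15 to 0.25).

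The BPA-arm PGCLC libraries differed among themselves in Hox genes. Replicate 3 held the highest BPA-arm value of several Hoxb and Hoxc genes. For Hoxb1 the counts were 10, 18 and 105, for Hoxb2 15, 10 and 56, and for Hoxb3 19, 26 and 79. Hoxb5 (50 counts), Hoxb8 (55 counts) and Hoxc8 (39 counts) were listed in replicate 3 and in neither of the other 2. The reverse held for Hoxa13 (44, 34 and 19 counts) and Hoxb13 (50, 36 and 10 counts). Summed CPM of the Hoxb cluster was 5.85, 6.82 and 14.5 in the BPA arm. Replicate 3 also had lower endoderm markers than replicates 1 and 2 (2134 against 4356 and 4271 CPM) and lower Mixl1 (0.594 against 14.7 and 15.2 CPM). Its lateral mesoderm markers were higher (149 against 113 and 105 CPM). In untreated PGCLCs, replicate 2 was the highest for Hoxb3 (10, 74 and 33 counts), Hoxb9 (31, 74 and 26 counts) and Hoxd9 (17 and 43 counts and unlisted), and it alone listed Hoxd11 (26 counts). The endoderm markers were higher in the BPA arm for 4 of 7 tested, the germ cell markers lower for 3 of 6 and the lateral mesoderm markers lower for 2 of 7. The part of these cell types in the Hox values was not tested.

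The difference between the BPA effect in PGCLCs and that in EpiLCs was tested in 1 model of all 12 libraries. It was called for 1 of the 26 Hox genes tested, Hoxa4, higher in PGCLCs (edgeR adjusted p = 0.00334), against 1.32% of all genes (1.01% higher and 0.312% lower). The EpiLC means of Hoxa4 were 4.66 untreated and 3.73 CPM with BPA, and in PGCLCs it went from unlisted to 0.398 CPM. With unlisted libraries set to 9 counts the log2 difference was 0.84 and the call was lost (edgeR adjusted p = 0.461).

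Genes inside and beside the clusters were read for comparison. Of 46 other genes annotated inside the clusters 15 were listed, and all 16 of the nearest protein-coding genes outside the ends were. Of 8 inside genes tested, 2 were higher and 1 lower in untreated PGCLCs, and 1 higher and 1 lower in the BPA arm. Gm53, inside Hoxb, was higher in both arms (log2 change 1.17 ± 0.19 in each, edgeR adjusted p = 0.000238 and 0.000233). Gm27605, inside Hoxb and unlisted throughout EpiLCs, was higher untreated. Hotairm1 was the 1 called lower, and it was named after its values were seen. Hotairm1, an antisense RNA of the Hoxa cluster, stood at 0.807, 0.960 and 1.60 CPM in untreated EpiLCs and 0.898, 1.15 and 0.901 CPM with BPA. It was unlisted in every PGCLC library, at least 3.95-fold lower untreated and at least 3.49-fold lower in the BPA arm (edgeR adjusted p = 0.00197 and 0.00201). Evx1, a posterior streak and allantois homeobox gene next to Hoxa13, was unlisted in every EpiLC library. In PGCLCs it was 3.76, 3.42 and 3.92 CPM untreated and 1.95, 1.73 and 1.70 CPM in the BPA arm. That is at least 7.70-fold and at least 3.26-fold higher than EpiLCs (edgeR adjusted p = 2.96e-05 and 6.21e-05), and it fell with BPA in PGCLCs by 1.03 ± 0.28 on the log2 scale (edgeR adjusted p = 0.0467). Evx2, beside Hoxd13, was listed in 1 library, BPA-arm PGCLC replicate 3, at 0.396 CPM. Of the 15 tested genes beside the clusters, 8 were higher and 4 lower in untreated PGCLCs, and 8 higher and 6 lower in the BPA arm. Over all genes, 30.4% were higher and 25.2% lower untreated, and 32.5% and 25% in the BPA arm.

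Regulators of Hox genes are given by list, beside 55.6% of all genes called between stages untreated (30.4% higher, 25.2% lower) and 57.5% in the BPA arm (32.5% higher, 25% lower). With BPA in PGCLCs 13.9% of all genes were called. With so few genes in a list, nothing is read from counts near these shares. Among the 9 TALE cofactors, homeodomain partners of Hox proteins, 3 were higher and 1 lower in untreated PGCLCs. Meis1 was unlisted or at most 0.549 CPM in EpiLCs, 12.3, 14.4 and 13.2 CPM in untreated PGCLCs and 8.61, 8.15 and 19.0 CPM in the BPA arm, a log2 change of 5.17 ± 0.59 untreated (edgeR adjusted p = 4.45e-05). Meis2 rose by 3.24 ± 0.28 and Pbx4 fell by 1.15 ± 0.28 (edgeR adjusted p = 1.67e-06 and 0.00379). In the BPA arm 4 rose and 1 fell. There Meis1 was at least 21.7-fold higher, Meis2 rose by 3.07 ± 0.28, and Pbx3 fell by 0.94 ± 0.17.

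Cdx and ParaHox genes (6), of which Cdx factors activate central Hox genes, had 0 higher and 2 lower of 5 tested in untreated PGCLCs. Cdx1 was 1.79, 1.97 and 3.62 CPM in untreated EpiLCs and 0.701 CPM, unlisted and 0.350 CPM in untreated PGCLCs (-2.79 ± 1.07, edgeR adjusted p = 0.0483). Gsx1 was lower by -4.53 ± 1.17 (edgeR adjusted p = 0.00607). In the BPA arm 2 were lower and 2 higher. Cdx1 was at least 7.47-fold lower there, and Cdx2 stood at 1.01, 1.07 and 1.53 CPM in EpiLCs and 4.65, 4.06 and 3.56 CPM in PGCLCs (1.75 ± 0.43, edgeR adjusted p = 0.00445). Gsx1 was lower by -5.17 ± 1.27 and Pdx1 at least 2.07-fold higher (edgeR adjusted p = 0.00411 and 0.0413). Cdx2 was also higher with BPA within PGCLCs (0.797, 0.964 and 2.01 CPM untreated, log2 change 1.71 ± 0.42, edgeR adjusted p = 0.0329), 1 of 2 tested there.

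Retinoic acid, the classical inducer of anterior Hox genes, is made, bound and cleared by the 11 listed genes of the next list. In untreated PGCLCs 4 were higher and 2 lower. Cyp26b1 and Cyp26c1, enzymes that degrade retinoic acid, were unlisted in EpiLCs and at least 9.93-fold and 2.59-fold higher (edgeR adjusted p = 4.64e-05 and 0.000606). Being unlisted in EpiLCs, they could be called only higher. The receptor Rara rose by 0.78 ± 0.15 and Rarg fell by 0.85 ± 0.13 (edgeR adjusted p = 0.000759 and 0.000139). In the BPA arm 6 were higher and 1 lower: Rara rose by 1.14 ± 0.15, Cyp26b1 was at least 8.04-fold higher, Cyp26a1 rose by 5.66 ± 0.88 and Rarg fell by 0.96 ± 0.13. Within PGCLCs, 2 of 10 were higher with BPA. Cyp26a1 stood at 11.3, 6.69 and 9.36 CPM untreated and 168, 163 and 8.99 CPM in the BPA arm (3.65 ± 0.90, edgeR adjusted p = 0.0344), high in replicates 1 and 2 alone. Rdh10, which makes the retinoic acid precursor, stood at 16.5, 10.5 and 7.84 CPM and 47.2, 44.2 and 18.0 CPM (1.66 ± 0.40, edgeR adjusted p = 0.0310).

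Polycomb group 1 subunits take part in silencing Hox clusters. Of 11 tested, 3 were higher and 1 lower in untreated PGCLCs: Rnf2, the catalytic subunit, rose by 0.86 ± 0.14, Pcgf2 by 0.53 ± 0.10 and Phc2 by 0.48 ± 0.14, and Phc1 fell by 0.39 ± 0.09 (edgeR adjusted p = 0.000317, 0.000892, 0.0115 and 0.00410). The BPA arm had 4 higher and 2 lower, with Pcgf2 at 0.68 ± 0.10, Rnf2 at 0.61 ± 0.14, Phc2 at 0.54 ± 0.14 and Phc1 at -0.34 ± 0.09. With BPA in PGCLCs 1 was higher, Cbx7 (0.33 ± 0.08, edgeR adjusted p = 0.0365). Of the 8 trithorax-type and other regulators, 4 were higher and 2 lower in each arm. Kmt2d, a histone methyltransferase, rose by 2.05 ± 0.28 untreated, Kdm6b, which removes the Polycomb mark, by 1.21 ± 0.19 and Kmt2a by 1.04 ± 0.31, and Gmnn, whose product geminin is known to inhibit Hox function, fell by 0.78 ± 0.14 (edgeR adjusted p = 7.26e-05, 0.000176, 0.0132 and 0.000682). Kmt2d stood at 115, 113 and 42.1 CPM in untreated EpiLCs and Kmt2a at 114, 116 and 37.0 CPM, low in replicate 3, the library that stood apart. In the BPA arm Kmt2d rose by 2.32 ± 0.28 and Kdm6b by 1.40 ± 0.19, and Gmnn and Wdr5 fell by 0.94 ± 0.15 and 0.48 ± 0.08. With BPA in PGCLCs 1 was higher, Kmt2d (0.33 ± 0.06), and 2 were lower, Gmnn (-0.39 ± 0.08) and Wdr5 (-0.26 ± 0.07), with edgeR adjusted p = 0.0154, 0.0187 and 0.0386. No TALE cofactor was called with BPA in PGCLCs (0 of 9). In EpiLCs no member of these lists was called with BPA, and the lowest p of each list belonged to Gsx1 (log2 change -0.48 ± 0.24), Cyp26a1 (-0.50 ± 0.25), Pknox2 (0.23 ± 0.14), Rnf2 (0.28 ± 0.19) and Kdm6b (0.29 ± 0.20), each with edgeR adjusted p = 0.943.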

How the data were processed

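RNA-seq counts per Ensembl gene were deposited by the authors as 1 file per library (12 in all), and CPM as 1 matrix per stage. Per the submitters' processing notes the tools were bcl2fastq 2.19.1.403, FastQC, STAR and HTSeq with the mm10 build. The deposited count files list genes from 10 counts up, so an unlisted gene holds 9 or fewer and was entered as 0, with 9 as an alternative. The authors' CPM matrices gave gene symbols only. Rows for reads outside genes (4.42 to 10.7% of counts for no feature) were left out.

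Tests used edgeR 4.0.16 quasi-likelihood fits in R 4.3.3 (TMM factors, edgeR's filter on low counts, Benjamini-Hochberg adjustment over all genes, threshold 0.05). BPA effects were fitted on the 6 libraries of a stage, and the stage effects and their difference on all 12 with 4 group means. DESeq2 1.42.0 was an alternative. The procedure was tested on simulated data. Exon lengths, loci and overlaps come from GENCODE M21. Members and gene lists were chosen with earlier results of these data known. Every library's values are printed for Hox genes called in a comparison or with a group mean of at least 1 CPM, and from each regulator list up to 4 called genes with the smallest adjusted p in a comparison, or else the gene with the smallest p; some genes that meet these rules are not reported here. No pair of libraries of the same group matched within sampling noise.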

Additional observations from a re-analysis of the deposited data

Results flagged for a closer look

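The difference between the BPA effect in PGCLCs and that in EpiLCs passed the test for Hoxa4, a neck-level Hox gene. Its fitted size was 6.66 on the log2 scale (edgeR adjusted p = 0.00334), a value that depends on how the 3 untreated PGCLC libraries, all unlisted, are entered. With 9 counts in each unlisted library the difference was 0.84 (edgeR adjusted p = 0.461). The BPA-arm PGCLC libraries held 12, 14 and 12 counts, just above the listing minimum of 10. All 3 BPA libraries were lower than the untreated ones in EpiLCs and higher in PGCLCs. How many of all genes separate in this way was not computed, so nothing is read from it.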

How the results depend on the processing

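Of 30 results on single Hox genes, 19 kept their call and direction under every alternative, 11 lost the call under at least 1, and 0 reversed. BPA in EpiLCs gave 0 Hox calls throughout, with 16 genes of any kind by DESeq2. For BPA in PGCLCs the Hox count of 1 became 0 with no filter, with a filter of 1 CPM in 3 libraries, with a replicate block and with unlisted genes at 9 counts, and 2 with DESeq2 (Hoxa4, Hoxa11) and in 1 fit of all 12 libraries (Hoxa4, Hoxb7). Leaving out 1 library gave 0 to 1 there, the 1 being Hoxc4 without untreated PGCLC replicate 2. Over all genes that comparison gave 2321 calls and 668 to 3206 with 1 library left out (668 without BPA-arm replicate 2, 677 without replicate 1). The stage counts of Hox genes, 14 in each arm, were 10 to 14 untreated and 9 to 14 in the BPA arm with 1 library left out (9 without BPA-arm PGCLC replicate 1). With unlisted genes at 9 counts they were 16 and 17, with Hoxc13 gained in both arms, Hoxa7, Hoxb6 and Hoxb8 untreated and Hoxa9, Hoxb7 and Hoxd13 in the BPA arm; a fit of the 6 libraries compared gave 12 and 17. For the difference of BPA effects, Hox calls were 2 by DESeq2 (Hoxa4, Hoxb7), 0 with unlisted genes at 9 counts and 1 to 3 with 1 library left out (3 without BPA-arm PGCLC replicate 3). Over all genes this difference gave 232 calls, 897 by DESeq2, 150 with a replicate block, 519 with unlisted genes at 9 counts and 83 to 767 with 1 library left out. The cause of these moves was not tested. Replicate numbers did not pair the libraries (correlation of same-numbered deviations -0.021 to 0.057), and the replicate block gave 13 Hox calls in each stage comparison and 1618 calls over all genes for BPA in PGCLCs. Most Hox genes held under 100 counts in PGCLCs, so calls there rest on few reads.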
